A study of Mus musculus with 6 samples.

Results

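The genes described here are 9 cytokine genes, Ifng, Il4, Il13, Il17a, Tnf, Csf2, Ltb, Tgfb1 and Tnfsf11, measured in invariant natural killer T (iNKT) cells taken from mouse liver, spleen and lymph node. They were chosen by name, as the rows of the count tables whose gene symbol is one of these 9, out of 27998 genes listed. All 9 were listed and all 9 had at least 1 unique molecular identifier (UMI, a tag that marks 1 captured RNA molecule) in the libraries.

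The cells came from wild-type (WT) C57BL/6 mice aged 5 weeks, which makes strain, genotype and age the same in all groups. Cell suspensions were depleted of cells that bear CD8 or B220, and cells positive for TCR-β and a CD1d tetramer were sorted from liver, spleen or lymph node, with 2 libraries for each organ and 6 in all. No treatment or stimulation is named, so the cells are taken as unstimulated, and the labels give the RNA as nuclear. The sources used here do not give how many mice went into a library, so the p-values below measure only the spread between these libraries.

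The libraries held 4768016 to 11086603 UMIs over 16587 cell barcodes, of which 16532 passed the limits on cells. The median was 2880 to 3592 UMIs per cell in the liver libraries and 1470 to 1730.5 in the other 4. A pair of libraries shared 6 to 20 barcodes, and 148 distinct barcodes occurred in 2 or more libraries. The liver and spleen libraries held 5401 to 10404 UMIs of Xist and none of 4 Y-linked genes, while the lymph node libraries held 0 of Xist and 1362 to 1579 of the Y-linked genes, so sex cannot be told apart from lymph node against the other organs. Zbtb16, the transcription factor that defines the lineage, lay between 70.9 and 99.5 CPM (UMI counts of the kept genes scaled to the same total in every library) in all 6 libraries. Of markers of other cells, the 7 B cell markers that were listed summed to 2.47 to 22.3 CPM. The 4 markers of CD8 and conventional T cells summed to 31.1 to 69.0 CPM. The 10 myeloid markers summed to 266.3 to 390.1 CPM, and which genes made up most of that is not given here. Csf1r was at 0 to 1.79 CPM but does not stand for the myeloid list. Lyz2, also a myeloid marker, was at 79.4 CPM in cells without an Ltb UMI and 6.56 CPM in Ltb carriers, compared at equal depth below. The 7 markers of NK and innate lymphoid cells moved with the organs, at 462.9 and 449.1 CPM for liver, 837.0 and 699.0 CPM for spleen and 1316 and 1340 CPM for lymph node. Most of that sum was Il7r and Gata3, which T cells also express, while Kit was at 0 in every library and Eomes at 0 to 0.512 CPM. The 8 markers of liver parenchyma and endothelium also moved with the organs, at 28.2 and 31.3 CPM for liver, 43.8 and 42.3 CPM for spleen and 66.3 and 67.0 CPM for lymph node, most of it Pecam1, with Alb at 0 to 0.279 CPM. The part of other cells in the results below was not tested beyond the fits without their cluster.

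iNKT cells recognise glycolipids presented by CD1d and are known for releasing cytokines within hours of activation, because several cytokine genes are already open and transcribed before any stimulus. The iNKT1 subset is known for interferon-γ, the iNKT2 subset for interleukins 4 and 13, and the iNKT17 subset for interleukin 17A. The remaining genes encode tumour necrosis factor, the growth factor GM-CSF (Csf2), the lymphotoxin-β chain that lymphotoxin needs for its place on the membrane (Ltb), the regulatory cytokine TGF-β1 and RANKL (Tnfsf11), a ligand of the TNF family that acts on osteoclast precursors and lymph node stroma.

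In the annotation of the genome build GRCm38 (mm10), Il4 (chr11:53602982-53618669, minus strand) and Il13 (chr11:53631324-53634702, minus strand) lie 12.7 kb apart, and Csf2 (chr11:54247271-54249667, minus strand) lies 613.0 kb further on. Ltb (chr17:35194439-35196320, plus strand) and Tnf (chr17:35199381-35202007, minus strand) lie 3.06 kb apart. Ifng is at chr10:118441046-118445892 (plus strand), Il17a at chr1:20730905-20734496 (plus), Tgfb1 at chr7:25687002-25705077 (plus) and Tnfsf11 at chr14:78277445-78308043 (minus). The annotation has an experimentally untested transcript on the same strand over Ifng, a miRNA within Ltb and a transcript antisense to Csf2, and whether reads were counted by strand is not given in the sources used here.

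The promoters of the 4 genes that are later described in pairs, Il4 with Il13 and Ifng with Csf2, are shown as the window from 250 bases before to 50 bases after the annotated start (RefSeq, GRCm38.p6), 5′ to 3′ on the strand of the gene. Capitals mark GGAAA, the core bound by NFAT factors, on either strand, where the reverse reads TTTCC. The windows lie at chr11:53618616-53618915 (minus strand), chr11:53634653-53634952 (minus), chr10:118440796-118441095 (plus) and chr11:54249850-54250149 (minus). The RefSeq start of Csf2 lies upstream of the start of the gene as placed above, so its window lies wholly before that start.
Il4 promoter: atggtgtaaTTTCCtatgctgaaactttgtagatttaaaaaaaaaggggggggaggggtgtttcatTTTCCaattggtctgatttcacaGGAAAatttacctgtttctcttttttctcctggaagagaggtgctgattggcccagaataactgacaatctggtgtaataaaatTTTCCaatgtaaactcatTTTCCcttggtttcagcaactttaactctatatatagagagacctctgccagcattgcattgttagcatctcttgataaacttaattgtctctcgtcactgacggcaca
Il13 promoter: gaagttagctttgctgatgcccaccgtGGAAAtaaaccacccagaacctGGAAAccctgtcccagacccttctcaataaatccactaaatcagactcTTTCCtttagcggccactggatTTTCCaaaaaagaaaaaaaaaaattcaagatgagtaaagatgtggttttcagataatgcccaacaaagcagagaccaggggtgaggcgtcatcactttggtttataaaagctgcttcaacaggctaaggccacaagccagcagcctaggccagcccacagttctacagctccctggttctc
Ifng promoter: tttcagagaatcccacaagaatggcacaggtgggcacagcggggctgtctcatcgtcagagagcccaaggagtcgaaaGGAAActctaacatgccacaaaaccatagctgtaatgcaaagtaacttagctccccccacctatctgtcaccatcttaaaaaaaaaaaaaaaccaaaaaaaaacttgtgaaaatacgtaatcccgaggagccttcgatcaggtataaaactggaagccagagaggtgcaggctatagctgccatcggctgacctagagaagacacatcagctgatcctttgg
Csf2 promoter: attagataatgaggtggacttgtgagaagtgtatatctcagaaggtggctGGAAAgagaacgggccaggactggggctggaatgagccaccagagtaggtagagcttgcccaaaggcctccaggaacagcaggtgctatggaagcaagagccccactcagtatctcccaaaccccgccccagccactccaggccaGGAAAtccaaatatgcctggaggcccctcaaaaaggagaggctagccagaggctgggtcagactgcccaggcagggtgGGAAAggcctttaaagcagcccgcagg

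GGAAA occurred 5 times in the Il4 window, 4 times in that of Il13, 3 times in those of Csf2 and Tnf, and 1 time in those of Ifng, Ltb and Tnfsf11. It did not occur in the windows of Il17a and Tgfb1. Of 32851 promoter windows of the same length, 61.3% held the motif, with a median of 1 occurrence. The TATA box TATAAA, searched on both strands, was in the windows of 5 of the 9 genes against 13.6% of all windows. These matches describe letters in a window and no binding was measured.

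Most of the 9 genes were sparse. At the depth deposited, 89.8% of cells carried at least 1 UMI of Ltb, 24.4% of Tgfb1, 19.7% of Il4, 12.6% of Ifng, 4.5% of Tnf, 3.88% of Tnfsf11, 2.83% of Csf2, 0.817% of Il13 and 0.194% of Il17a (n = 16532 cells). The liver libraries held more UMIs per cell, although the methods of the study give similar mean reads per cell for all samples, so shares of cells are compared after each cell was thinned at random to 1000 UMIs, which kept 15457 cells. At this depth 71.6% carried Ltb, 11.6% Tgfb1, 9.52% Il4 and 6.17% Ifng. Leaving Ltb and Tgfb1 aside, 19.2% of thinned cells carried any of the other 7 genes, from 17% in liver replicate 1 to 22.4% in lymph node replicate 2, and 1.77% carried 2 or more of them.

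**Figure D1:**
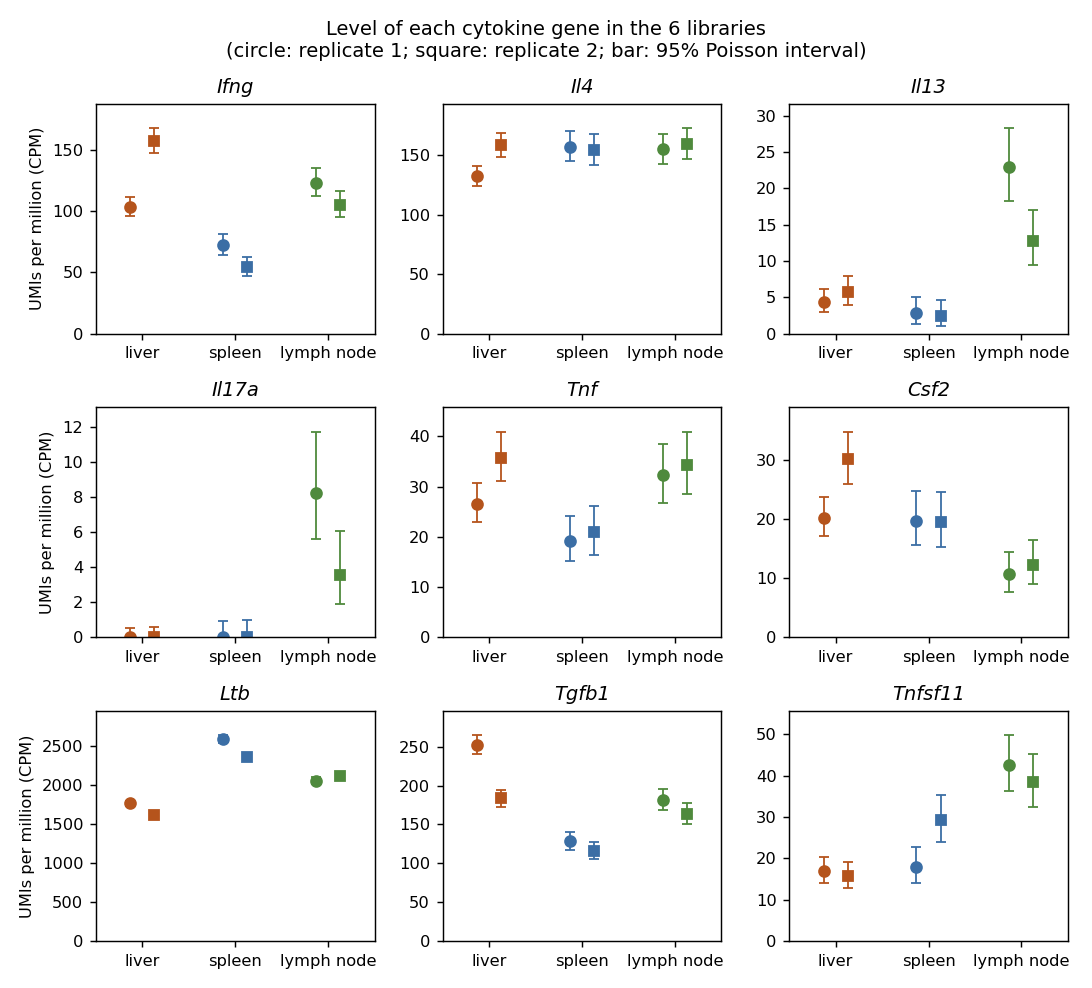
Level of each cytokine gene in the 6 libraries, in CPM over the kept genes (vertical axis from 0), by organ. Circles are replicate 1, squares replicate 2 and bars the 95% Poisson interval of the library's count. Il17a lay at 0 in the liver and spleen libraries and at 3.54 and 8.25 CPM in the lymph node libraries, while Il4 lay between 132.6 and 159.4 CPM in all 6.

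The organs were compared on UMIs summed over all cells of a library (edgeR's quasi-likelihood test, Benjamini-Hochberg adjusted p, called below 0.05). In such sums, fewer cells of a type and less RNA per cell cannot be told apart. For liver over spleen 5 of the 9 genes were called, against 25.8% of the 10265 genes tested. Il17a had 0 UMIs in both organs and could not be called there. For liver over lymph node 5 of 9 were called, against 37.5% of all genes, and for spleen over lymph node 7 of 9, against 18.1%. These counts depend on single libraries: leaving out 1 library gave 2 to 5, 3 to 6 and 2 to 7 of the 9, and DESeq2 called 3, 4 and 3. The median log2 fold change of the 9 genes was 0.277, -0.163 and -0.709 in the 3 comparisons, beside 0.0199, 0.00731 and 0.00487 over all genes tested. Il17a, which passed the filter on low counts only through the lymph node libraries, is included in these counts and medians.

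Ifng encodes interferon-γ, which activates macrophages and drives antigen presentation. Its level was 103.7 and 157.5 CPM in the liver libraries, 72.4 and 54.7 CPM in spleen and 123.2 and 105.2 CPM in lymph node. The spleen libraries were the lowest and did not overlap with either other organ, while liver and lymph node overlapped. In sums over all cells Ifng was higher in liver than in spleen, with a log2 fold change of 0.96 ± 0.23 (SE, n = 2 libraries per organ, adjusted p = 0.0158 by edgeR), and lower in spleen than in lymph node (-0.82 ± 0.23, adjusted p = 0.0435). These calls rest on few libraries: without spleen replicate 2 the adjusted p for liver over spleen was 0.0649, and the call for spleen over lymph node was lost without lymph node replicate 1, lymph node replicate 2 or spleen replicate 2 and without the B cell, myeloid and cycling clusters (adjusted p = 0.0737). Both calls were also lost in the edgeR fit with the replicate number as a block (adjusted p = 0.131 and 0.226). Liver over lymph node was not called (0.14 ± 0.22, adjusted p = 0.65), and this fold ran from -0.22 without liver replicate 2 to 0.44 without liver replicate 1, where it was called (adjusted p = 0.0277).

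The share of thinned cells with an Ifng UMI was 5.96% and 7.75% for the liver libraries. It was 4.72% and 4.18% for those of spleen, and 7.71% and 6.61% for those of lymph node. The 95% Wilson interval, which covers counting error only, ran from 3.97% to 5.61% in spleen replicate 1, from 5.14% to 6.90% in liver replicate 1, which overlaps it, and from 6.82% to 8.79% in liver replicate 2. The cells were grouped by clustering without the 9 genes, at the finer of the settings tried (Leiden resolution 1.0, chosen after both were seen), and clusters were named from marker lists that hold none of the 9. Ifng was at 247.1 CPM in the NF-kB-like cluster (723 cells, 591 of them from liver, with Irf8, Cxcl10 and Icam1 among the leading genes), at 239.8 CPM in an unnamed cluster of 2007 cells (1937 from lymph node, with Gm17056, Dusp1, Ppp1r15a and Junb and the Y-linked Eif2s3y and Ddx3y among the leading genes), at 214.2 CPM in a small iNKT1-like cluster of 145 cells (15.8% of its thinned cells), at 189.6 CPM in the interferon-response-like cluster and at 162.3 CPM in the Gzma-like cluster. The large iNKT1-like clusters of spleen and liver were at 70.3 and 93.3 CPM.

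The iNKT17-like cluster (2012 cells, led by Ccr6, Pxdc1 and Serpinb1a) had the lowest level of Ifng among clusters of 100 or more cells, at 23.3 CPM. Of its thinned cells 1.63% carried Ifng, at a median of 1837 UMIs per cell before thinning, against 13.5% in the unnamed lymph node cluster, at a median of 1305 UMIs. The 1.63% is the lowest share among these clusters and comes mostly from lymph node cells, 1 of which held 5 Ifng UMIs. It sets no background for liver or spleen, and how much of any share free RNA gave was not tested. Within the NF-kB-like cluster Ifng was at 176.1 and 321.1 CPM in the liver libraries and at 106.8 CPM in spleen replicate 1. Of its 496 Ifng UMIs, 1 cell of liver replicate 2 held 47 and 3 more of that library held 23, 17 and 12, so this level too rests in part on few cells. Within the interferon-response-like cluster it was at 197.1 and 345.7 CPM in liver, 91.0 and 61.6 CPM in spleen and 217.0 CPM in lymph node replicate 1. Of the 213 Ifng UMIs of that cluster, 5 liver cells held 43, 11, 8, 7 and 5, so its liver levels rest on few cells.

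Tnf, the inflammatory cytokine next to Ltb, was at 26.6 and 35.7 CPM in liver, 19.2 and 20.9 CPM in spleen and 32.2 and 34.3 CPM in lymph node. Both spleen libraries lay under the other 4. Tnf was higher in liver than in spleen (log2 fold change 0.56 ± 0.19, SE, n = 2, adjusted p = 0.0266 by edgeR) and lower in spleen than in lymph node (-0.71 ± 0.20, adjusted p = 0.00911). Both calls were lost in DESeq2, the first with an adjusted p of 0.168 and also without liver replicate 2, spleen replicate 1 or spleen replicate 2, and the second also without lymph node replicate 2 or spleen replicate 1. By cluster Tnf ran from 19.6 CPM in an RTE-like cluster (named for markers of recent thymic emigrants, such as Ccr7 and Klf2) to 49.8 CPM in the NF-kB-like cluster among clusters of 200 or more cells. A smaller RTE-like cluster of 163 cells lay lower, at 5.96 CPM from 1 UMI.

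Csf2 encodes GM-CSF, a growth factor of granulocytes and macrophages. It was at 20.2 and 30.0 CPM in liver, 19.7 and 19.5 CPM in spleen and 10.6 and 12.3 CPM in lymph node, so that the lymph node libraries were the lowest and did not overlap with the others. It was higher in liver than in lymph node (log2 fold change 1.07 ± 0.23, SE, n = 2, adjusted p = 0.000337 by edgeR), and this call held in all 14 alternatives tried. It was also higher in spleen than in lymph node (0.80 ± 0.25, adjusted p = 0.0204), a call that was lost in DESeq2 and without either library of spleen or of lymph node. In the NF-kB-like cluster Csf2 was at 62.8 CPM, with 55.8 and 67.7 CPM in the liver libraries, and that cluster held 22.4% of all Csf2 UMIs in 4.37% of cells. Of its 126 Csf2 UMIs, 63 came from 6 cells, so the level rests on few cells. In the iNKT2-like cluster (831 cells, 814 from lymph node, led by Ccl1, Nrgn and Pdcd1) it was at 2.08 CPM (95% Poisson interval 0.429 to 6.08).

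Il4, the cytokine that turns B cells to IgE and helper T cells to type 2, was the member with the most even level. It was at 132.6 and 158.8 CPM in liver, 157.4 and 154.5 CPM in spleen and 155.1 and 159.4 CPM in lymph node, and liver replicate 1 was the lowest, with the other 5 libraries between 154.5 and 159.4 CPM. No comparison called it: the log2 fold changes were -0.17 ± 0.12 for liver over spleen (adjusted p = 0.294 by edgeR), -0.16 ± 0.12 for liver over lymph node (0.291) and 0.01 ± 0.12 for spleen over lymph node (0.965), and none of the 14 alternatives called it either.

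Between clusters Il4 did vary. It was at 307.1 CPM in the iNKT2-like cluster, with 314.8 and 305.8 CPM in the lymph node libraries, against 186.7 and 176.1 CPM in the large iNKT1-like clusters of spleen and liver, 74.1 CPM in the Gzma-like cluster and 60.3 CPM in the iNKT17-like cluster. Of thinned cells, 18.4% of the iNKT2-like cluster carried Il4 at a median of 2088 UMIs per cell. Among clusters of 100 or more cells the lowest shares were 1.45% of the smaller RTE-like cluster (163 cells with a median of 1415 UMIs, 78 in each lymph node library), 3.69% of the Gzma-like cluster (1140 cells, of which 423 and 452 from the liver libraries, a median of 2762.5 UMIs) and 4.16% of the iNKT17-like cluster (a median of 1837 UMIs), and whether shares at that level are expression or free RNA was not tested. The smaller RTE-like cluster also met the naming rule for CD8 and conventional T cell markers (median log2 fold 1.48, 3 of 4 raised 2-fold). The large iNKT1-like clusters, at 11.8% and 10.5%, lay between these and the iNKT2-like cluster.

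Il13, which acts on epithelium, mucus and macrophages, followed a steeper pattern. It was at 4.32 and 5.68 CPM in liver, 2.82 and 2.47 CPM in spleen and 22.9 and 12.8 CPM in lymph node, from 9 to 86 UMIs per library. The lymph node libraries were the highest and the groups did not overlap. Il13 was lower in liver than in lymph node (log2 fold change -1.90 ± 0.29, SE, n = 2, adjusted p = 4.27e-06 by edgeR) and lower in spleen than in lymph node (-2.72 ± 0.36, adjusted p = 8.1e-07), and both calls held in all 14 alternatives. Liver over spleen was not called (0.83 ± 0.41, adjusted p = 0.14). The iNKT2-like cluster held 38.8% of all Il13 UMIs in 5.03% of cells, at 58.9 CPM, with 68.5 and 51.5 CPM in the lymph node libraries, and 4 cells held 20, 7, 7 and 6 of its 85 Il13 UMIs. The NF-kB-like cluster followed at 24.9 CPM, with 23.6 and 22.2 CPM in the liver libraries, while the large iNKT1-like clusters were at 0.79 and 1.79 CPM.

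Il17a, the cytokine that recruits neutrophils, was found in lymph node only: 31 UMIs in 20 cells of replicate 1 (8.25 CPM) and 13 UMIs in 12 cells of replicate 2 (3.54 CPM), with 0 UMIs in each liver and spleen library. A count of 0 in the 11046 liver and spleen cells allows a share of up to 0.0272% of cells with a UMI. A floor of 3 counts per library stands for 0.418 and 0.487 CPM in liver and 0.768 and 0.825 CPM in spleen. edgeR called both differences (adjusted p = 7.18e-07 and 3.1e-05), and DESeq2 called neither (0.288 and 0.495). Il17a passed the filter on low counts only through the lymph node libraries, where it was high. The edgeR calls therefore add no support beyond the counts themselves. The iNKT17-like cluster held 77.3% of all Il17a UMIs and 23 of its 32 carriers, and of the other carriers 4 were in the iNKT2-like cluster, 4 in the unnamed lymph node cluster and 1 in an iNKT1-like cluster.

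The iNKT17-like cluster itself was mostly lymph node, with 1891 of its cells from there, 53 from liver and 68 from spleen. With 34 UMIs in the lymph node cells, the 0 UMIs in the liver and spleen cells of this cluster allow a share of up to 5.66% and 4.41% of cells, so a difference within the cluster was not detectable at this depth. The iNKT17 markers summed to 480.3 to 570.0 CPM in the liver and spleen libraries and to 2094 and 2191 CPM in lymph node, and 12 of 12 tested were lower in each of the others than in lymph node, beside 37.5% and 18.1% of all genes called for liver and spleen over lymph node.

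Ltb was carried by most cells, with a median of 3 UMIs per carrier and up to 30 in 1 cell. It was at 1761 and 1616 CPM in liver, 2579 and 2350 CPM in spleen and 2050 and 2116 CPM in lymph node. The 3 organs did not overlap, with liver the lowest and spleen the highest. Ltb was lower in liver than in spleen (log2 fold change -0.62 ± 0.12, SE, n = 2, adjusted p = 0.000345 by edgeR), a call that held in all 14 alternatives, and lower in liver than in lymph node (-0.36 ± 0.12, adjusted p = 0.0209), which was lost without liver replicate 2, lymph node replicate 1 or lymph node replicate 2. Spleen over lymph node was not called (0.26 ± 0.12, adjusted p = 0.143). After thinning, 66.2% and 62.4% of liver cells carried Ltb, against 78.9% and 77.7% of spleen cells and 73.1% and 73.3% of those from lymph node.

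By cluster Ltb was highest in the iNKT1-like cluster of spleen, at 3167 CPM (3406 and 3028 CPM in the spleen libraries), against 1761 CPM in the iNKT1-like cluster of liver (1811 and 1641 CPM). It was at 2663 CPM in the unnamed lymph node cluster, at 1401 CPM in the iNKT2-like cluster and lowest at 1048 CPM in the cycling cluster, among clusters of 100 or more cells.

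Tnfsf11 was at 17 and 15.8 CPM in liver, 17.9 and 29.1 CPM in spleen and 42.6 and 38.4 CPM in lymph node. The lymph node libraries were the highest, and liver and spleen lay close together except for spleen replicate 2. It was lower in liver than in lymph node (log2 fold change -1.36 ± 0.19, SE, n = 2, adjusted p = 1.28e-06 by edgeR), which held in all 14 alternatives. It was also called lower in spleen than in lymph node (-0.77 ± 0.20, adjusted p = 0.0056; lost in DESeq2 and without lymph node replicate 1 or spleen replicate 1) and lower in liver than in spleen (-0.59 ± 0.21, adjusted p = 0.0332), a call that 7 of 14 alternatives lost, the fit without spleen replicate 2 among them. The iNKT2-like cluster was at 89.4 CPM (96.1 and 76.4 CPM in the lymph node libraries) and held 18.5% of all Tnfsf11 UMIs, while the other clusters of 100 or more cells lay between 8.9 and 30.4 CPM.

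Tgfb1, whose product limits T cell activation, was at 252.7 and 183.7 CPM in liver, 128.8 and 115.7 CPM in spleen and 181.5 and 164.0 CPM in lymph node. The spleen libraries were the lowest, and liver and lymph node did not overlap by a small margin. Tgfb1 was higher in liver than in spleen (log2 fold change 0.76 ± 0.13, SE, n = 2, adjusted p = 5.91e-05 by edgeR), which held in all 14 alternatives, and lower in spleen than in lymph node (-0.48 ± 0.13, adjusted p = 0.00902), which was lost without lymph node replicate 1 or spleen replicate 2. Liver over lymph node was not called (0.28 ± 0.13, adjusted p = 0.0781), but 4 of 14 alternatives called it, among them the fits on thinned cells, with no filter on low counts and without liver replicate 2, and the fold ran from 0.07 to 0.47. By cluster it ran from 89.5 CPM in the smaller RTE-like cluster to 284.0 CPM in the NF-kB-like cluster, and of thinned cells 16.0% and 12.5% carried it among liver cells, 9.05% and 7.92% among spleen cells and 12.7% and 11.1% among lymph node cells.

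**Figure D2:**
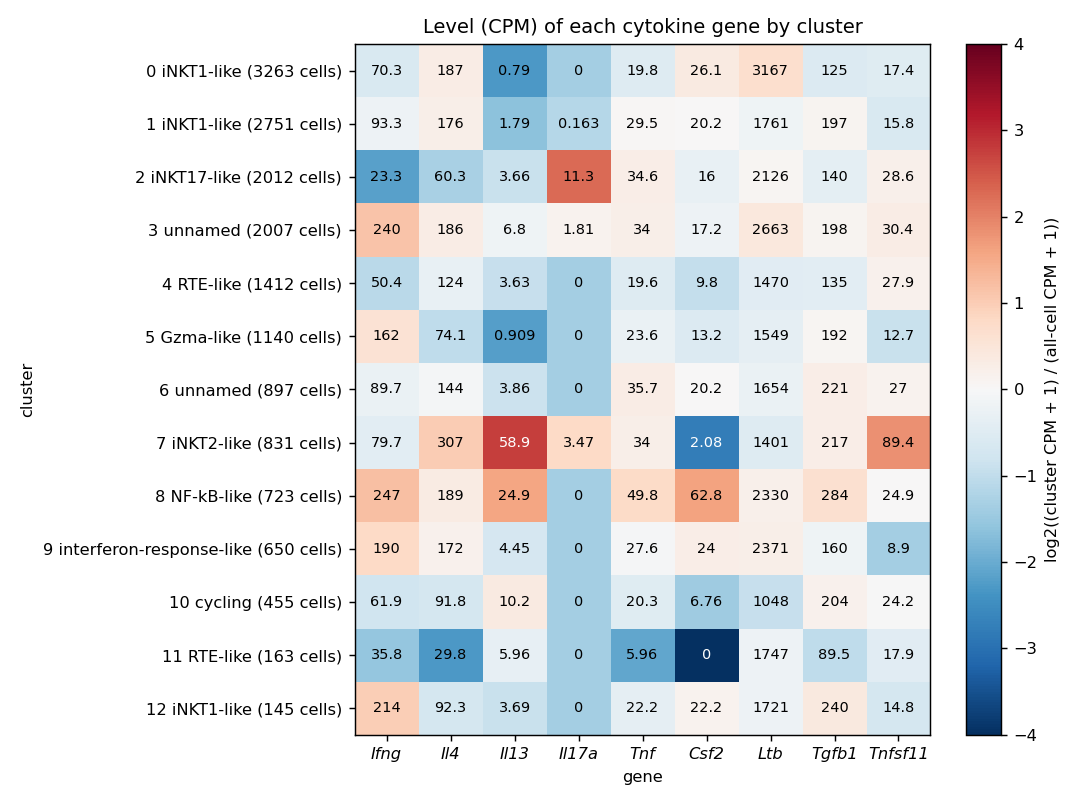
Level (CPM, printed in each cell of the map) of the 9 cytokine genes in the 13 clusters of 100 or more cells, coloured by the log2 ratio to the level over all cells with 1 CPM added to both. Rows are clusters with their number of cells and columns are genes. Il13 and Tnfsf11 are highest in the iNKT2-like cluster, at 58.9 and 89.4 CPM, Il17a in the iNKT17-like cluster at 11.3 CPM and Csf2 in the NF-kB-like cluster at 62.8 CPM.

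Because the organs differ in their mix of subsets, the organs were also compared within the iNKT1-like cells alone, taken at the coarser setting (resolution 0.5) with 2140 and 1951 cells from liver, 1794 and 1852 from spleen and 106 and 157 from lymph node. Il13 and Il17a did not pass the filter on low counts, which left 7 of the 9 genes. For liver over spleen 3 of 7 were called, against 21.4% of the 9338 genes tested. Ltb was lower in liver (log2 fold change -0.95 ± 0.13, SE, n = 2, adjusted p = 6.08e-10 by edgeR), Tgfb1 was higher (0.71 ± 0.13, adjusted p = 7.23e-06), and both held in all 10 alternatives. Ifng was higher in liver (0.54 ± 0.15, adjusted p = 0.00456), a call that was lost in DESeq2 (0.195), with the finer clusters (0.106) and without liver replicate 2 or spleen replicate 2. The name is a weak one: the iNKT1 markers had a median log2 fold of 0.63 against all other cells in the larger liver cluster, with 4 of 13 raised 2-fold, and of 0.31 in that of spleen, with 1 of 13. At the finer setting, used for the cluster levels above, the large iNKT1-like clusters of liver and spleen had 0.26 and 0.31, each with 1 of 13. The Gzma-like cluster, which was named for another list and is not among the iNKT1-like cells, had higher iNKT1 markers (1.26, with 9 of 13). At the finer setting it had 1.33, with 8 of 13. Most of the iNKT1-like cells sat in 1 cluster of liver cells and 1 of spleen cells, so the organs are compared here across clusters.

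Within the larger cluster of each organ, Ltb was at 1787 and 1610 CPM in liver and at 3334 and 2996 CPM in spleen, Tgfb1 at 237.6 and 171.7 CPM against 128.8 and 113.5 CPM, and Ifng at 94.0 and 123.2 CPM against 78.3 and 65.4 CPM. None of the 3 genes overlapped between these organs, but they were picked by the calls above on mostly the same cells, so this adds no support. For liver over lymph node edgeR called 0 of the 7 genes, against 5.58% of all genes, with 2 of 7 at an unadjusted p below 0.05 and 1 called by DESeq2. Without lymph node replicate 1, Tnfsf11 was called there (adjusted p = 0.0475), and for liver over spleen Tnf was called in thinned cells (adjusted p = 0.0283). For spleen over lymph node 1 of 7 was called, against 2.47%: Ltb was higher in spleen (0.54 ± 0.14, adjusted p = 0.0133), which was lost without spleen replicate 1 or either lymph node library. The lymph node cells here fell into the cluster of mostly liver cells (67 and 95) or that of mostly spleen cells (39 and 62). They were thus kept for their likeness to those cells. An unnamed cluster at this setting, with 1388 and 1405 lymph node cells, was left out. The study assigned its own main lymph node cluster to iNKT1, so these fits do not stand for lymph node iNKT1 cells at large. With 106 and 157 cells the lymph node sums are shallow, and a p that misses the threshold there does not show that the levels are alike.

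**Figure D3:**
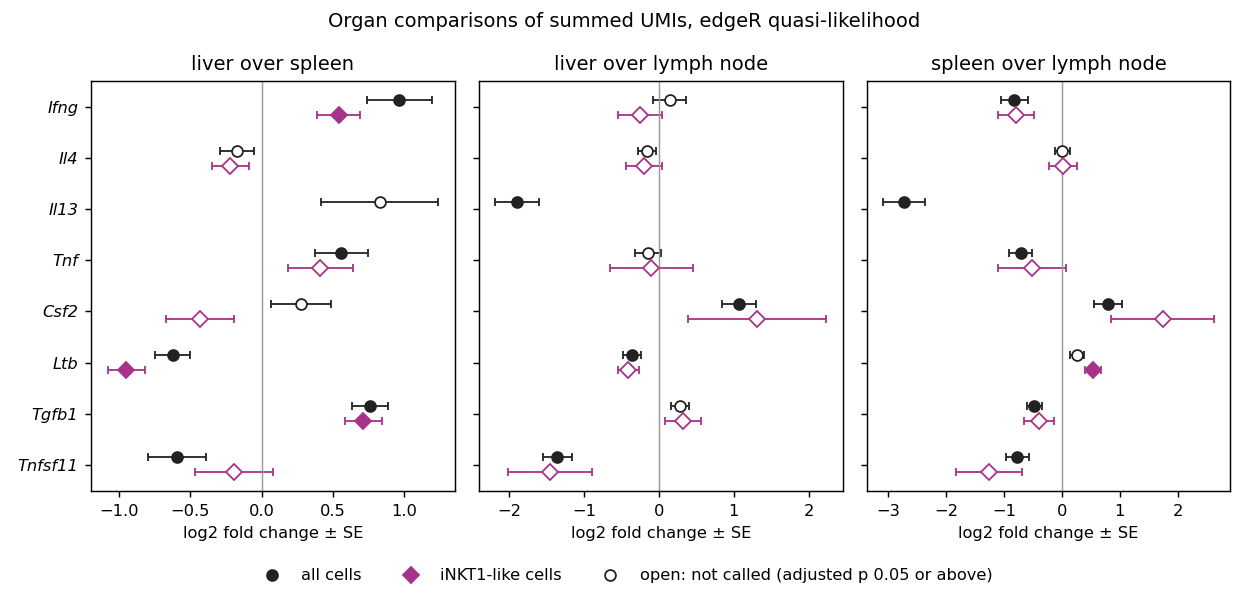
Log2 fold change ± SE of 8 cytokine genes (vertical axis) in the 3 organ comparisons, for sums over all cells (black circles) and over iNKT1-like cells (purple diamonds), n = 2 libraries per organ, with open symbols for values that were not called. Il17a is left out because its count is 0 in liver and spleen, and Il13 has no value in iNKT1-like cells. Ltb lies below 0 and Tgfb1 above 0 for liver over spleen in both kinds of sum.

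Beyond levels, the UMIs were spread unevenly over cells. Of carriers, 78.2% had a single UMI of Ifng, 80.4% of Il4, 92.7% of Csf2 and 93.5% of Tnf, and 19.4% of Ltb. If UMIs had been spread over the cells of a library by depth alone, 2655 cells would have carried Ifng, and 2084 did (78.5%). The same share was 62.4% for Il13, 73.2% for Il17a, 85.3% for Csf2 and 89.8% for Il4, and 94.8% to 98.0% for Tnfsf11, Tnf, Ltb and Tgfb1.

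A total of 47 cells had 5 or more UMIs of Ifng. They were 0.284% of cells and held 14.5% of Ifng UMIs. The liver libraries had 16 and 20 such cells, the spleen libraries 3 and 0 and the lymph node libraries 7 and 1, at the depths given above. They held 17.3% and 25.9% of the Ifng UMIs of the liver libraries, and without them the liver libraries were at 86.3 and 118.0 CPM, the spleen libraries at 68.7 and 54.7 CPM and the lymph node libraries at 112.0 and 104.0 CPM. Of the 47 cells, 17 were in the NF-kB-like cluster, 7 in the iNKT1-like cluster of liver, 6 in the Gzma-like cluster, and 5 each in the interferon-response-like cluster and the unnamed lymph node cluster. No doublet caller was run. The 2 cells with the most Ifng had 3294 and 5780 UMIs in all.

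The cell with the most Ifng, a liver replicate 2 cell of the NF-kB-like cluster, held 47 UMIs of Ifng, 26 of Csf2, 18 of Il4 and 9 of Tnf. The next, from the same library in the interferon-response-like cluster, held 43 of Ifng and 43 of Il4. A lymph node replicate 1 cell of the iNKT2-like cluster held 20 UMIs of Il13 and 13 of Il4, among 7538 UMIs in all where the median of its library was 1730.5. All 6 cells with 5 or more UMIs of Csf2 were in the NF-kB-like cluster, all 6 carried Ifng and 4 carried Il4. Of 7 cells with 5 or more UMIs of Il13, which held 26.9% of its UMIs, 4 were iNKT2-like and 3 NF-kB-like, and 6 carried Il4. These 7 cells had 3770 to 14449 UMIs in all, each above the median of its library, and whether any of them were doublets was not tested. Of 30 cells with 5 or more UMIs of Il4, 12 were in the NF-kB-like cluster and 9 in the iNKT2-like cluster.

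**Figure D4:**
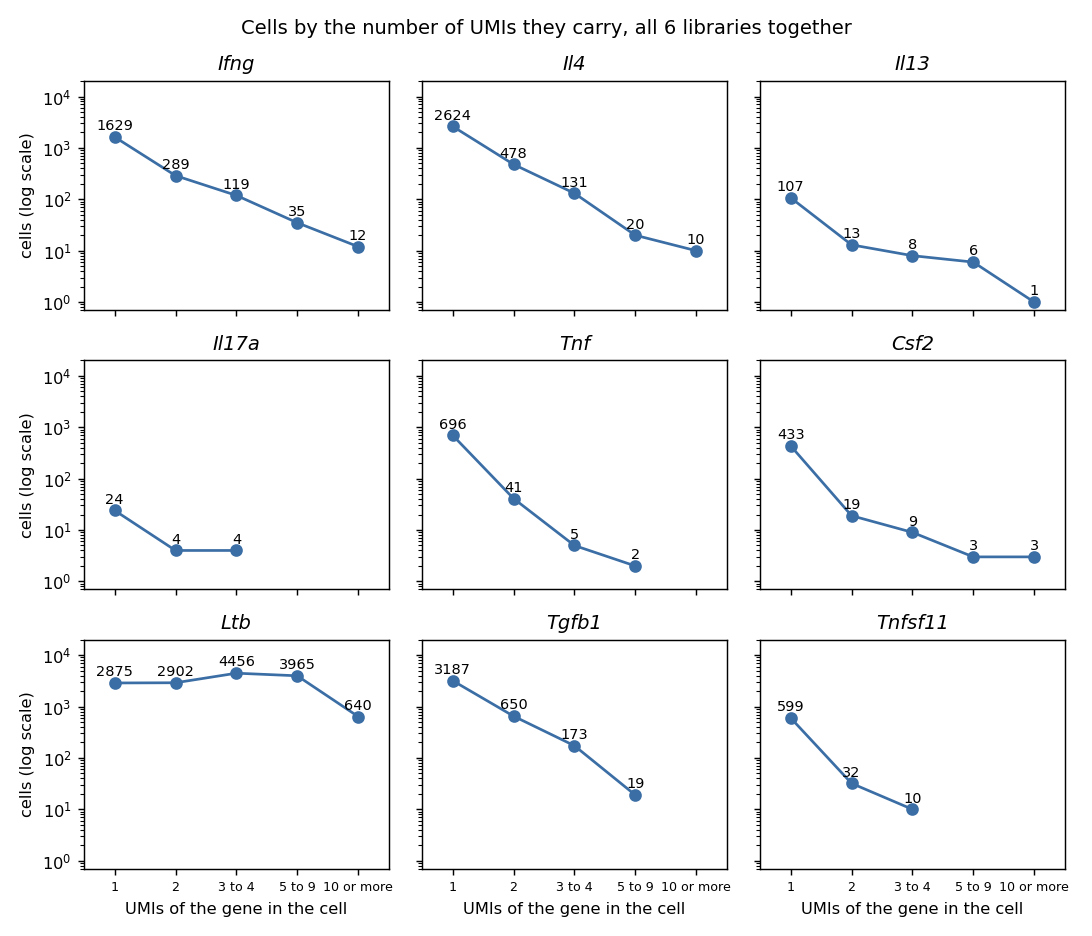
Number of cells (log scale, printed at each point) by the UMIs of each cytokine gene they carry, over all 6 libraries at the depth deposited, with cells at 0 UMIs left out. Ifng reaches 10 or more UMIs in 12 cells, Il4 in 10, Csf2 in 3 and Il13 in 1, while no cell has more than 9 of Tnf or Tgfb1.

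Pairs of the 9 genes in the same cell were counted in the thinned cells and set beside the number expected from the shares of both genes in each library, as a description across cells that share library and depth. Ifng and Il4 were together in 117 cells where 90.1 were expected (1.3 times), above in 4 libraries and below in 2, with 23 against 10.6 in spleen replicate 2. Ifng and Csf2 were together in 27 cells against 12.8 (2.12 times), with more than expected in 4 libraries and fewer in 2. Il4 and Il13 were together in 18 cells against 5.34 (3.37 times), above in 5 libraries and below in 1. With the expected number formed within each cluster of each library, the ratios were 1.21, 1.98 and 2.27. Il4 and Csf2 met in 20 cells where 20.0 were expected, Il4 and Tnf in 25 where 28.5 were, and Il13 and Csf2 in 0 where 0.581 was. Il13 and Tnfsf11 were together in 7 cells against 1.32 (2.33 within clusters), above in 2 libraries and below in 4. The lymph node libraries held 3 and 4 of these cells.

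**Figure D5:**
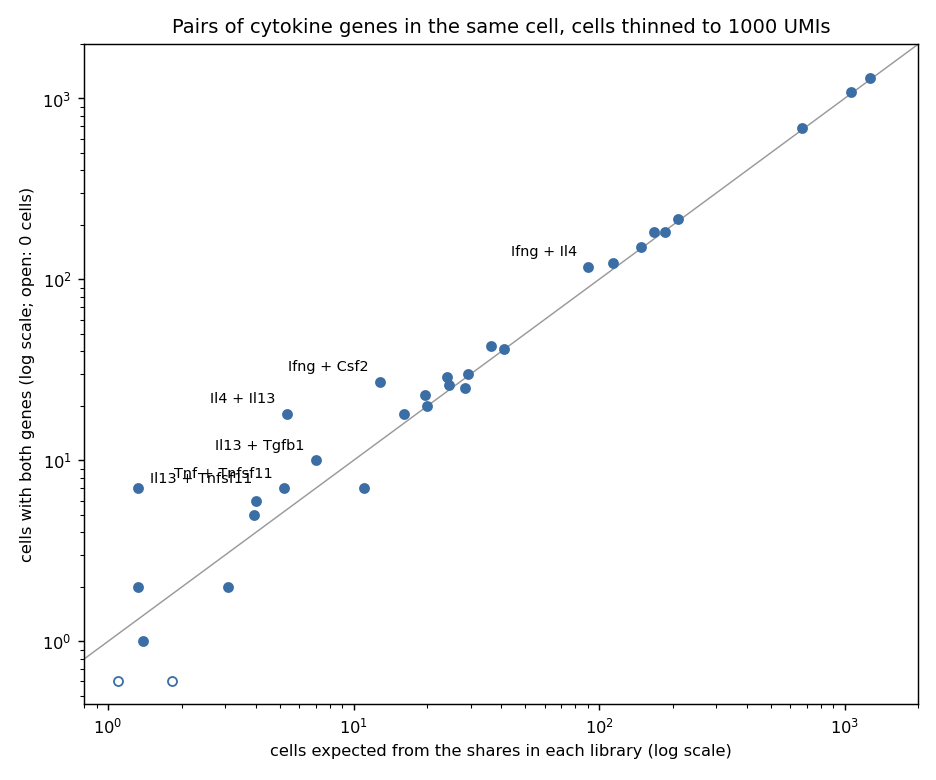
Cells that carry both genes of a pair (vertical axis) against the number expected from the shares in each library (horizontal axis), both on log scales, for pairs of the 9 cytokine genes with 1 or more expected cells, in cells thinned to 1000 UMIs. The line marks equal numbers, and open points mark pairs found in 0 cells. Il4 with Il13 (18 cells against 5.34) and Ifng with Csf2 (27 against 12.8) lie above the line.

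Cells that carried a gene were compared with those that did not, on sums of the thinned cells within each library (edgeR, library as a block, the gene itself left out). Il13 and Il17a had 10 carriers or more in only 2 and 1 libraries and were not compared. Without thinning, at unequal depth, Il13 carriers gave 227 called genes of 4863, 141 higher and 86 lower. For Ifng (953 carriers against 14504 other cells) 50 genes were called, 0.74% of 6756. Among the named genes higher in carriers were Cxcl10, an interferon-induced chemokine (85.4 against 16.7 CPM, log2 fold change 2.31, adjusted p = 6.96e-06, higher in 6 of 6 libraries), Tagap (109.0 against 44.3 CPM, 1.26, adjusted p = 0.000121) and the serpin Serpina3g (129.0 against 63.2 CPM, 1.04, adjusted p = 0.00032). The inhibitory receptor gene Klra7 (1.83), the signalling inhibitor Spry2 (1.18) and Csf2 (59.3 against 17.9 CPM, 1.70, adjusted p = 0.00122) were also higher. Lyz2, a myeloid gene (4.34 against 28.5 CPM), and the iNKT17 markers Blk (8.68 against 33.9 CPM) and Ccr6 (11.6 against 41.9 CPM) were lower. Of 4 myeloid markers tested, Fcer1g, which NK cells also express, was higher (log2 fold change 0.89, adjusted p = 0.0267). Cxcl10, Tagap and Lyz2 were called in every alternative that gave a value, while Csf2, Klra7 and Serpina3g were not called with another random seed of the thinning. Without lymph node replicate 1, Blk, Ccr6 and Spry2 were not called, and without lymph node replicate 2 Blk and Spry2 were not.

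For Il4 (1472 carriers) 42 genes were called, 0.543% of 7741, of which 9 were higher and 33 lower in carriers. Of iNKT17 markers 5 of 11 tested were lower, and of myeloid markers 2 of 4 (Lyz2 and Fcer1g), while 4 of 13 iNKT1 markers and 2 of 3 Gzma NK-like markers were lower as well. The NK receptor genes Klra7 and Klra9 were lower in carriers (0.949 against 17.7 CPM and 2.85 against 28.1 CPM, adjusted p = 0.000554 and 7.75e-06), each in 6 of 6 libraries, and Lingo4 was lower too (0.949 against 11.3 CPM, adjusted p = 0.0409). Bcl2, which protects from cell death (373.0 against 302.0 CPM, log2 fold change 0.43, adjusted p = 0.000558), the prostaglandin receptor gene Ptger4 (138.0 against 91.2 CPM, 0.62, adjusted p = 0.00463) and Ifng (158.0 against 101.0 CPM, 0.67, adjusted p = 0.000388, higher in 4 of 6 libraries) were higher, as were Hes1, Pdcd1 and Spry2 at adjusted p of 0.0409, 0.0103 and 0.0442. Klra7 held in every alternative, Klra9 was not called with the second seed, and the others were lost in 2 to 7 of their alternatives.

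For Ltb (11069 carriers) 169 genes were called, 1.76% of 9596. Of cycling markers 6 of 9 tested were lower in carriers, while 5 of 9 NF-kB markers and 4 of 13 iNKT1 markers were higher. Nfkb2, a subunit of NF-kB (48.4 against 24.5 CPM, log2 fold change 0.99, adjusted p = 3.4e-06), and the adhesion molecule gene Icam1 (86.7 against 52.3 CPM, 0.88, adjusted p = 7.7e-10) were higher in carriers in 6 of 6 libraries and held in all 11 alternatives. Serpina3f (0.92), Tank, a regulator of NF-kB signalling (0.76), Secisbp2 (0.82) and Apol7e (1.28) were higher in 6 of 6 libraries as well, and each lost its call in 1 to 8 alternatives. The myeloid genes Lyz2 (6.56 against 79.4 CPM) and Apoe (7.94 against 55.2 CPM) and the transporter gene Slc22a3 (2.77 against 7.74 CPM) were lower, in 4, 5 and 4 of 6 libraries, and these calls were lost in 6, 2 and 3 of 11, 11 and 7 alternatives. The cluster of 24 B-cell-and-myeloid-like cells, led by Lyz2 and Apoe, lies among the cells compared, and its part in these values was not tested.

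The other genes gave few calls. Carriers of Tnfsf11 (255 cells, 5 genes called, 0.161% of 3112) were higher in Id3, an inhibitor of E proteins (189.0 against 44.7 CPM, log2 fold change 1.68, adjusted p = 0.000545, 6 of 6 libraries), which held in all 7 alternatives that gave a value, and lower in Klf2, a factor of quiescence and egress (59.3 against 208.0 CPM, adjusted p = 0.000545), Cfdp1 and Hist1h2ap. Klf2 lost its call in 4 of 10 alternatives (log2 fold change down to -0.21), Cfdp1 in 7 of 10 and Hist1h2ap in 6 of 9, in 2 of which it changed sign. Carriers of Csf2 (209 cells, 3 genes called, 0.116% of 2580) were higher in Ifng (388.0 against 103.0 CPM, log2 fold change 1.76, adjusted p = 1.65e-07, 4 of 6 libraries) and lower in Klf2 (53.5 against 208.0 CPM) and Lgals1, and with another thinning seed or without spleen replicate 2 no gene was called. The call of Ifng was also lost without thinning and without liver replicate 2 (log2 fold change 0.91), the library with the cell that held 47 Ifng and 26 Csf2 UMIs. Carriers of Tnf (299 cells, 3 genes called, 0.0847% of 3540) were higher in Myc (177.0 against 57.2 CPM, adjusted p = 0.000688), which was lost with another seed and without lymph node replicate 1 and gave no value at 750 UMIs and without liver replicate 2, and lower in Ilf2 and Actb, which lost their calls in 8 and 9 of 10 alternatives. Carriers of Tgfb1 (1799 cells) differed in 1 gene, Hist1h2ap, 0.0123% of 8152, a call that was lost at 750 UMIs and without liver replicate 2, lymph node replicate 1 or spleen replicate 1.

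Of 34 other cytokine genes, 17 were tested, and 8 differed for liver over spleen (5 higher, 3 lower), 14 for liver over lymph node (5 higher, 9 lower) and 9 for spleen over lymph node (2 higher, 7 lower), beside 25.8%, 37.5% and 18.1% of all genes tested. Their median log2 fold changes were 0.259, -0.497 and -0.107. Some genes were picked from this list after their values were seen. For lymph node, Il22 gave 32 and 39 UMIs against 1 in all liver and spleen libraries together. Il17f gave 10 and 21 against 1, and the growth factor gene Areg 13 and 13 against 0. Genes this low elsewhere could pass the filter on low counts only through lymph node, where they were high. Any of them among the 17 tested therefore add no support to the lower counts and medians against lymph node. Il21, a B cell helper cytokine, had 24 and 21 UMIs in lymph node and 2 to 8 in the others. Liver was higher than spleen in the TNF-family ligands Tnfsf14 (194.7 to 208.5 against 107.8 to 108.0 CPM, adjusted p = 0.00014 by edgeR) and Tnfsf9 (5.52 and 8.64 against 1.28 and 4.4 CPM, adjusted p = 0.0272), and lower in Cd40lg (167.8 and 190.1 against 290.8 and 281.5 CPM, adjusted p = 1.36e-05) and Osm (adjusted p = 0.000912).

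Of 17 receptors of the 9 cytokines, 11 were tested, and 5, 6 and 3 differed in the 3 comparisons, in the same order, beside 25.8%, 37.5% and 18.1% of all genes. Ifngr1 was higher in liver than in spleen (log2 fold change 1.51, adjusted p = 2.55e-10 by edgeR) and Ifngr2, the other chain of the interferon-γ receptor, was lower (-1.61, adjusted p = 0.000477). Il4ra and Tnfrsf1a were higher in liver than in spleen (1.36 and 1.23) and than in lymph node (1.89 and 1.97), and Tgfbr3 was higher in lymph node than in both other organs.

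Of 26 transcription factors that act on cytokine genes, 24 were tested, and 12 differed for liver over spleen (10 higher, 2 lower), 19 for liver over lymph node (14 higher, 5 lower) and 11 for spleen over lymph node (7 higher, 4 lower), beside the same 25.8%, 37.5% and 18.1%. Tbx21, the factor of interferon-γ production, was at 116.2 and 134.5 CPM in liver, 95.7 and 74.5 CPM in spleen and 29.3 and 27.8 CPM in lymph node. Irf1, Irf4 and Nfatc1 were higher in liver than in spleen (log2 fold changes 0.83, 1.05 and 0.91, adjusted p = 2.72e-05, 0.0106 and 7.87e-06 by edgeR). A list of 16 genes of cytokine mRNA decay also holds Nt5e, a surface nucleotidase that is no decay gene and was lower in both liver and spleen than in lymph node. Of these 16, Nt5e included, 2 were higher in liver than in spleen (Khsrp and Tial1), 2 were higher and 6 lower in liver than in lymph node, and 5 were lower in spleen than in lymph node. For liver over spleen that is a smaller share than the 25.8% of all genes called. Zfp36, which destabilises Tnf and other cytokine mRNAs, was at 124.2 and 152.2 CPM in lymph node and 35.5 to 47.9 CPM elsewhere. Furin, the protease that cleaves pro-TGF-β1, was the gene called of 6 tested from a list of TGF-β activation and TNF-family shedding, at 120.8 and 122.9 CPM in lymph node, 44.7 and 48.4 CPM in liver and 21.7 and 28.7 CPM in spleen.

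The 16 immediate early genes, which respond quickly when a cell is stimulated, moved with the lymph node libraries. They summed to 8859 and 9703 CPM there, to 2215 and 2614 CPM in spleen and to 1663 and 1809 CPM in liver, and 14 of 15 tested were lower in each other organ than in lymph node (median log2 fold change -2.12 for liver and -1.83 for spleen). Fos alone was at 550.0 and 575.7 CPM in lymph node and 8.28 to 25.9 CPM elsewhere. Of the 15, 6 were also lower in liver than in spleen. Of all genes tested, 37.5%, 18.1% and 25.8% were called in these comparisons, in the order given. The part of the immediate early genes in the lymph node levels of the 9 cytokine genes was not tested.

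The genes whose level was most like that of each cytokine gene were ranked by Pearson's r of log2(CPM + 10) over 33 sums of a library and a named class of 50 or more cells, as a description, since the sums share libraries and depth. They were Ifi47 (r = 0.77), Gbp7 and Xcl1 (0.72 each) for Ifng, Serpina3f (0.8), Irf1 (0.79) and St6galnac4 (0.76) for Csf2, and Ociad1 (0.75), Mettl16 (0.71) and Syngr2 (0.68) for Tnf. For Il4 they were Bcl2a1d (0.75), Metap1 (0.68) and Bcl2a1b (0.67) and for Il13 Nab2 (0.81), St13 (0.77) and Phgdh (0.76). Those of Il17a are left out, since it had a mean of 0.973 CPM over these sums and was at 0 in liver and spleen. For Ltb they were Shisa5 (0.8), Sec62 (0.78) and Ahcyl2 (0.76), for Tgfb1 Hspa8 and Mrfap1 (0.82 each) and Hsp90ab1 (0.81), and for Tnfsf11 Mmd (0.76), Scamp3 (0.75) and Mbd3 (0.69).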

How the data were processed

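Single-cell RNA-seq (10x Genomics 3′ v2 chemistry) was done on sorted iNKT cells in 6 libraries. The authors deposited, for each library, raw UMI counts per gene and cell, with gene and barcode tables of other text columns. Per the labels, the submitters' processing notes name Cell Ranger 3.1.0, Seurat and the build mm10. Barcodes with 300 to 4000 genes and at most 15% mitochondrial counts were kept, and 94 ribosomal, rRNA and haemoglobin genes (22.9% to 34.0% of UMIs) were left out of levels and tests. Gene positions came from GENCODE (98.7% of 27998 gene IDs matched) and promoters from RefSeq.

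Counts were summed per library, filtered with filterByExpr and tested with edgeR 4.0.16 (quasi-likelihood, all 3 organs in 1 fit, Benjamini-Hochberg adjusted p below 0.05), with DESeq2 1.42.0 as an alternative. Cells were clustered without the 9 genes in scanpy 1.11.5 (3000 variable genes, 20 components, 20 neighbours, Leiden resolution 0.5 for tests and 1.0 for description). A cluster was named where its markers were raised by a median log2 fold of 1 with 3 or more of them raised 2-fold, and a cluster that met this for no list was called iNKT1-like where its iNKT1 markers had a median above 0. These rules were set after the clusters were seen. For carrier comparisons each cell was thinned to 1000 UMIs, and libraries with 10 carriers or more were used where there were at least 4. For these sums filterByExpr, tried first, called genes at 0, so genes with 10 or more UMIs expected in the smaller arm were tested, a filter chosen after seeing those results. In simulated data with 200 changed genes, edgeR recovered 98% of 2-fold and 43.5% of 1.5-fold changes for liver over spleen (10129 and 10127 genes), 93.5% and 41% for Ifng carriers, and 91% and 21% for Csf2 carriers. Of the genes called, 1.51% and 7.45%, 3.61% and 5.75%, and 6.67% and 4.55% were false, in that order. The changed genes were drawn only from genes above a floor on mean UMIs, and the spread between libraries was fixed at the same value for all genes. These rates therefore do not carry over to sparse genes such as Il13 and Il17a, or to genes with a larger spread. Intervals are exact Poisson for counts and Wilson for shares, at 95%, and cover counting error only.

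The members and lists were chosen with earlier results of these data known. Beside the 9 genes, text names up to 4 called genes of each list and comparison with the largest absolute fold change, the 6 highest and 3 lowest called genes of each carrier comparison and the 3 genes most like each member but Il17a. The values of 1 gene of these lists are not reported here. Replicate numbers gave correlations of 0.0834, 0.0861 and 0.0673 between same-numbered libraries over 10265 genes, so the libraries were not treated as paired. Alternatives left out each library in turn and changed the tool, filters, depth, seed, clusters and block. The shared barcodes were kept, and no doublet caller was run.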

Additional observations from a re-analysis of the deposited data

How the results depend on the processing

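Of 570 values of the 9 genes in organ comparisons, 503 kept their direction and their side of the threshold, 43 lost their call, 9 gained one and 15 changed sign. Of 374 values of named genes in carrier comparisons, 252 kept both, 116 lost their call and 6 changed sign. The causes were not tested. With DESeq2, 1324, 2356 and 1035 genes were called for liver over spleen, liver over lymph node and spleen over lymph node, with 3, 4 and 3 of the 9 genes, and 836 genes for liver over spleen in iNKT1-like cells, where liver over lymph node gained 1 of the 9. Thinned to 1000 UMIs, liver over spleen gave 1747 genes, and in iNKT1-like cells the 3 comparisons gave 1250, 249 and 122. At resolution 1.0, liver over lymph node in these cells gave 325. Without thinning, carriers of Csf2, Ifng, Il4, Ltb, Tgfb1, Tnf and Tnfsf11 gave 8, 306, 188, 78, 1219, 152 and 378 genes. With filterByExpr, which the filter on expected UMIs replaced after its results were seen, carriers of Csf2, Tnf and Tnfsf11 gave 203, 111 and 192. With a second seed Csf2 gave 0 and Tgfb1 2, at 750 UMIs Il4 gave 23 and Tgfb1, Tnf and Tnfsf11 0 each, and with 2 UMIs or more per carrier Ifng, Il4 and Tgfb1 gave 29, 7 and 2. The fits that gave 0 had 121 (Csf2), 355 (Tgfb1), 106 (Tnf) and 121 (Tnfsf11) genes at an unadjusted p below 0.05.

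Leaving out 1 library, calls ran from 1366 to 2410 genes (2 to 5 of the 9) for liver over spleen, 2387 to 4050 (3 to 6) for liver over lymph node and 1003 to 1929 (2 to 7) for spleen over lymph node. In iNKT1-like cells they ran from 751 to 2199 (2 to 3), 153 to 511 (0 to 1) and 59 to 276 (0 to 1). For carriers of Csf2 they ran from 0 to 4, Ifng 21 to 49, Il4 21 to 36, Ltb 104 to 172, Tgfb1 0 to 2, Tnf 0 to 2 and Tnfsf11 1 to 8.

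These log2 folds changed sign, and none of them was called in the setting given. Where a library was left out, the range over all such fits is given. In all cells they were Tnf for liver over lymph node without liver replicate 1 (-0.40 to 0.08), Ifng without liver replicate 2 (-0.22 to 0.44), Csf2 for liver over spleen without liver replicate 2 (-0.05 to 0.58), and Il4 for spleen over lymph node with the removed genes kept (-0.0007) and without lymph node replicate 1 (-0.0014 to 0.02). In iNKT1-like cells they were, for liver over lymph node, Il4 (0.18), Ifng (0.26) and Tnf (0.50) at resolution 1.0, Tnf thinned (0.10), without liver replicate 1 (0.07) and without lymph node replicate 1 (-0.36 to 0.13), and Ifng without lymph node replicate 1 (-0.75 to 0.29). The others there were Tnfsf11 for liver over spleen without spleen replicate 2 (-0.42 to 0.01), and for spleen over lymph node Il4 in DESeq2 (-0.03) and Tnf at resolution 1.0 (0.03). Among carriers, Hist1h2ap reversed for Tgfb1 at 750 UMIs (-0.24) and for Tnfsf11 without thinning (1.09) and with a second seed (0.09), and Actb for Tnf in those settings (0.01 without thinning, 0.03 with a second seed, 0.11 at 750 UMIs).

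With the replicate number as a block, 3067, 4167 and 2132 genes were called in the 3 comparisons, with 4, 6 and 6 of the 9, and in iNKT1-like cells liver over lymph node gained 1 of them. The libraries share only a number. Under the block Ifng lost its calls (adjusted p = 0.131 for liver over spleen and 0.226 for spleen over lymph node) and Tgfb1 gained one for liver over lymph node. The limits are 2 libraries per organ, shallow lymph node iNKT1-like sums and single-UMI carriers.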
